A study of Mus musculus with 10 samples.

Results

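Pbx2, Pbx3 and Meis1 encode homeodomain transcription factors of the TALE class, and their messenger RNA was read here in Ikaros-mutant thymic tumours and in young thymocytes. The genes were taken as all probe sets whose symbol in the array annotation was one of these names, which gave 5 of the 12488 probe sets: 3 for Pbx3, 1 for Pbx2 and 1 for Meis1. Pbx3 was chosen by its higher tumour intensities on these arrays, so its differences between tumours and thymocytes are given as a description without a test, and Pbx2 and Meis1 were added as a paralog and a partner. In the GRCm38.p6 annotation Pbx3 lies on chromosome 2 (34171457 to 34372045), Pbx2 on chromosome 17 (34592259 to 34597400) and Meis1 on chromosome 11 (18880428 to 19019651).

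TALE homeodomain proteins carry an extended loop in the DNA-binding domain. PBX proteins bind DNA together with HOX proteins and with MEIS or PREP proteins, which also hold PBX in the nucleus. MEIS1 together with HOXA9 drives myeloid leukaemia in mouse models, PBX3 is a partner of both in human leukaemia with rearranged MLL, and Meis1 is a gene of haematopoietic stem and progenitor cells whose level falls as blood cells mature.

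RNA was measured on MG_U74Av2 oligonucleotide arrays, on which a probe set is a group of short probes for 1 transcript. Ikaros is the zinc-finger regulator of lymphocyte development encoded by Ikzf1. The 6 tumours were advanced tumours of the thymus in mice with 2 copies of a hypomorphic Ikaros allele, a genotype written IkL/L. The comparison groups were unfractionated thymocytes of 3-week-old wild-type (WT) mice (n = 2) and of 3-week-old IkL/L mice (n = 2), both labelled as C57Bl6 background. The tumours and the IkL/L thymocytes thus share the mutation, and the WT thymocytes lack it. Each array was labelled as coming from 1 mouse and carried a number of its own, so arrays were treated as separate animals. The labels gave neither an age nor a background for the tumour-bearing mice, so age cannot be told apart from the tumour state. In these bulk samples fewer cells of a type and less RNA per cell cannot be told apart.

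Arrays were on a common scale, with trimmed means of 300.17 to 300.21, and their medians ran from 79.8 to 113. The brighter Ikzf1 probe set read 150.6 to 387.6 in tumours, 625.9 and 400.6 in WT and 559.5 and 263.9 in IkL/L thymocytes, and where it lies relative to the mutated part of the gene is not known. Of 12 thymocyte markers on the array none was below 16, the floor used here, on any array. Of these 12, all tested, only Rag1 and Rag2, which recombine antigen receptor genes, passed the test used here. Both fell in the tumours against both thymocyte groups, where 0.878% (WT) and 0.516% (IkL/L) of all tested probe sets were called lower. The tumour difference was positive for 1 of the 12 from WT and for 3 from IkL/L thymocytes. The Rag1 calls were kept in 13 and the Rag2 calls in 8 of 21 alternatives, and both were lost with chip lot as a block and within lot 1. They were also lost when either array of the thymocyte group compared was left out. The summed intensity of the 12 markers was 28656 to 43717 in tumours against 56171 to 65628 in thymocytes. Tumours 1 to 5 were on chip lot 2 and tumour 6 and all thymocyte samples on lot 1. Tumours 4 and 6 were hybridized on the same day as the thymocytes. Arrays were few, and their number limits the precision of each value below.

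Pbx3 was low in every thymocyte sample and higher in every tumour with each of its 3 probe sets. On probe set 93615_at the intensity was 392.7, 126.3, 76.3, 254.9, 304.5 and 602.4 in tumours 1 to 6, 16.2 and 25.6 in WT and 4.9 and 32.2 in IkL/L thymocytes. The lowest tumour was 2.37 times the highest thymocyte array, and the tumours differed among themselves by 7.90-fold. Probe set 93616_g_at, designed on the same source sequence as 93615_at, read 167, 60.8, 81.7, 105.6, 150.3 and 170 in tumours 1 to 6, 40 and 8.6 in WT and 19.8 and 26.9 in IkL/L thymocytes. Its groups did not overlap either, with the lowest tumour at 1.52 times the highest thymocyte array.

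The third probe set, 96580_at, was designed on another source sequence. It read 109.5, 64.2, 79.7, 89.1, 101.9 and 109.5 in tumours 1 to 6, 29.6 and 51.1 in WT and 14.6 and 16.7 in IkL/L thymocytes. Here the lowest tumour was 1.26 times the highest thymocyte array, and the spread of the tumours was narrower at 1.71-fold. All 3 probe sets placed tumours 1 and 6 highest, then tumour 5, then tumour 4, and tumours 2 and 3 lowest. Tumours 2 and 3 changed places between 93615_at and the other probe sets, and 96580_at gave tumours 1 and 6 the same value. The probe sets read the same RNA and are not replicates of each other.

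**Figure D1:**
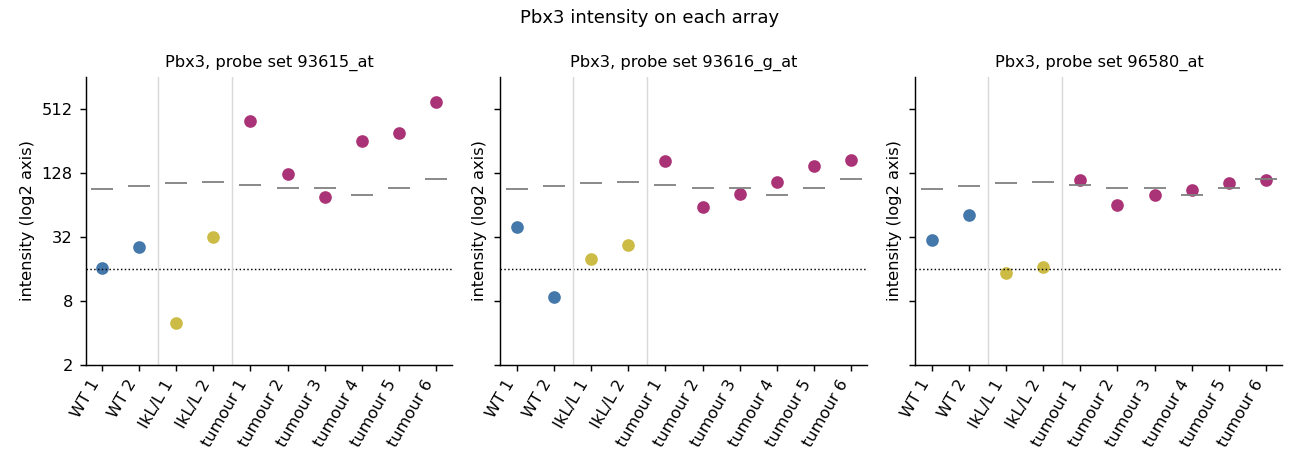
Intensity (log2 axis) of the 3 Pbx3 probe sets on each of the 10 arrays, as single points, with WT thymocytes in blue, IkL/L thymocytes in yellow and tumours in purple. Grey dashes mark the median of each array and the dotted line the floor of 16; on 93615_at tumours lie at 76.3 to 602.4 and thymocytes at 4.9 to 32.2.

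With all arrays, the mean on 93615_at was 293 ± 191 (SD, n = 6) in tumours, 20.9 ± 6.65 (n = 2) in WT and 18.6 ± 19.3 (n = 2) in IkL/L thymocytes. The log2 difference, taken after values under 16 were raised to 16, was 3.54 ± 0.68 (SE) from WT, which is 11.6-fold, and 3.38 ± 0.68 from IkL/L thymocytes, which is 10.4-fold. On 93616_g_at the tumour mean was 123 ± 46.4, and the log2 differences were 2.18 ± 0.46 from WT (4.52-fold) and 2.31 ± 0.46 from IkL/L thymocytes (4.96-fold). On 96580_at the tumour mean was 92.3 ± 18.1, and the differences were 1.22 ± 0.28 from WT (2.33-fold) and 2.47 ± 0.28 from IkL/L thymocytes (5.55-fold). The same tumours enter both comparisons. A single array of the dimmer group lay under the floor in 93615_at and 96580_at for IkL/L and in 93616_g_at for WT thymocytes, so the size of those folds depends on the floor. In order of rise over the 7172 probe sets tested, 93615_at stood at place 9 against WT and 12 against IkL/L thymocytes, 93616_g_at at 68 and 49, and 96580_at at 258 and 39. Against WT 9.16% and against IkL/L thymocytes 10.4% of all tested probe sets had every tumour above every array of the other group. At an adjusted p under 0.05, 1% and 0.906% of tested probe sets were called higher in tumours in these comparisons, and 0.878% and 0.516% lower. Nothing is read from these places or shares about Pbx3, which was chosen in the same comparisons.

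The 3 probe sets entered the tested set only through the tumours, since none of them exceeded the array median in any thymocyte sample. In tumours 93615_at exceeded it on 5, 93616_g_at on 4 and 96580_at on 3 of 6 arrays.

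Every tumour exceeded every thymocyte array on each Pbx3 probe set, so Pbx3 had to be higher within any shared hybridization day or chip lot. Only the sizes of these differences are given here. Within day 1, which holds tumours 4 and 6 and all thymocyte arrays, the log2 differences from WT were 4.27, 2.40 and 1.34 for 93615_at, 93616_g_at and 96580_at. From IkL/L thymocytes they were 4.11, 2.54 and 2.60. Within lot 1 the values rest on tumour 6 alone and were 4.89, 2.75 and 1.49 from WT and 4.73, 2.88 and 2.74 from IkL/L thymocytes. A run, here a chain of arrays with at most 10 minutes between consecutive recorded hybridization times, never held tumours and IkL/L thymocytes at once. With run as a block the differences from IkL/L thymocytes, which then pass through single WT arrays, were 4.77, 1.22 and 3.38. For 93616_g_at 1 WT array decided much of the size: the difference from WT was 2.84 (7.15-fold) without the first WT array and 1.52 (2.86-fold) without the second.

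**Figure D2:**
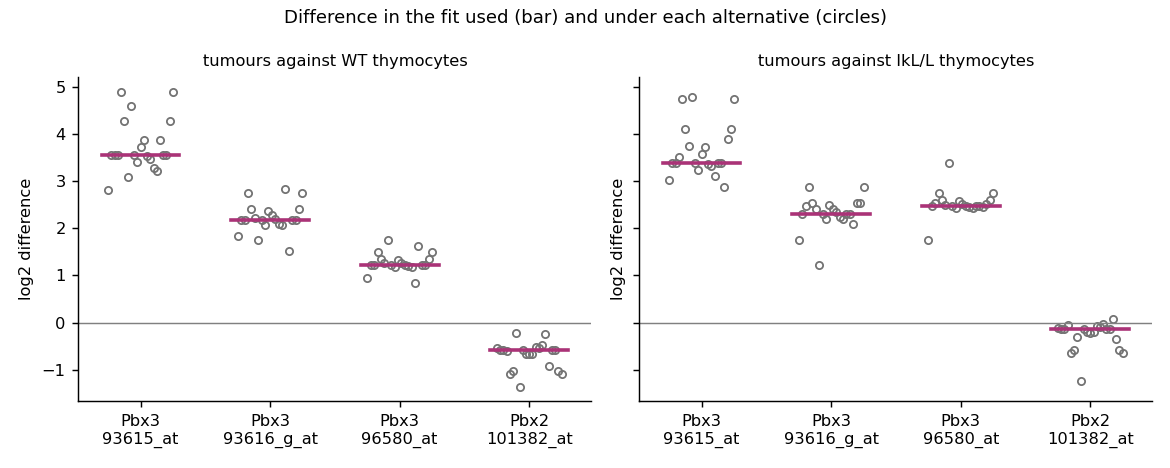
Log2 difference (y axis) of tumours from WT thymocytes (left) and from IkL/L thymocytes (right) for the Pbx3 and Pbx2 probe sets; the purple bar is the fit reported and each grey circle an alternative setting or an array left out. Pbx3 93615_at ranged from 2.81 to 4.89 against WT, and Pbx2 from -1.36 to -0.22.

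The comparison of the thymocyte genotypes did not enter the choice of Pbx3 and was tested. Between IkL/L and WT thymocytes 93615_at differed by a log2 of 0.16 ± 0.84 (95% interval -1.70 to 2.02, adjusted p = 0.999), a positive sign although the IkL/L mean was the lower, because the IkL/L array at 4.9 was raised to the floor, and 93616_g_at by -0.13 ± 0.56 (-1.39 to 1.12, adjusted p = 0.999). Probe set 96580_at was lower in both IkL/L arrays than in both WT arrays, by -1.25 ± 0.34 (-2.01 to -0.49). It did not pass after adjustment over all 7172 probe sets (adjusted p = 0.999, unadjusted p = 0.00414 by limma), and 1 of the 2 IkL/L arrays lay under the floor. Of all tested probe sets 18.2% were lower and 21.2% higher without overlap in this comparison, and 0.0139% passed adjusted p under 0.05 as lower and 0% as higher, beside 230 probe sets at an unadjusted p under 0.05, 83 of them lower. The intervals of the first 2 probe sets include changes of more than 2-fold in either direction, so equal Pbx3 levels in the genotypes were not shown.

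Pbx2, the paralog found in most tissues, was read on 101382_at in every sample and overlapped between all groups. It was 205.9, 210.9, 205.6, 124.2, 133.3 and 111.7 in tumours 1 to 6, 301.9 and 189.7 in WT and 202.5 and 152 in IkL/L thymocytes. The highest array was a WT sample and the lowest was tumour 6, in which Pbx3 on 93615_at was highest. Tumours 1, 2 and 3 lay close together above tumours 4, 5 and 6. Pbx2 exceeded the array median on 9 of 10 arrays, tumour 6 being the exception.

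The tumour mean of Pbx2 was 165 ± 46.8 (n = 6) against 246 ± 79.3 in WT thymocytes (n = 2), a log2 difference of -0.58 ± 0.32 (95% interval -1.31 to 0.14, adjusted p = 0.431). Against IkL/L thymocytes, with a mean of 177 ± 35.7, it was -0.14 ± 0.32 (-0.86 to 0.58, adjusted p = 0.846). Between the thymocyte genotypes it was -0.45 ± 0.40 (-1.33 to 0.44, adjusted p = 0.999). None passed, while 1.88%, 1.42% and 0.0139% of all tested probe sets did in these comparisons. Within day 1 the differences of the tumours were -1.02 from WT and -0.57 from IkL/L thymocytes, and within lot 1 they were -1.10 and -0.65. With run as a block they were -1.36 (adjusted p = 0.327) and -1.25 (adjusted p = 0.841). Over the 21 alternatives the adjusted p of Pbx2 in tumours by limma was 0.265 to 0.880 against WT and 0.481 to 0.959 against IkL/L thymocytes.

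Meis1, the MEIS partner, was near or under the floor throughout. On 98790_s_at it read 5.5, 7, 3.4, 21.4, 2.5 and 8.8 in tumours 1 to 6, 24.2 and 16.4 in WT and 5.7 and 36.3 in IkL/L thymocytes. It lay under the floor of 16 on 5 of 6 tumours, on no WT array and on 1 of 2 IkL/L arrays, and below the array median on all 10. It was therefore not tested, no fold is given, and values under the floor have no order.

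**Figure D3:**
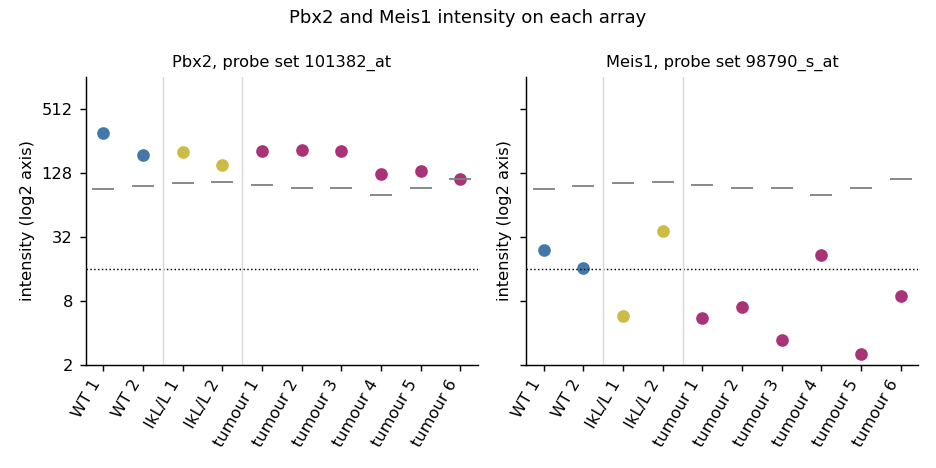
Intensity (log2 axis) of Pbx2 and Meis1 on each array, as single points coloured by group (WT blue, IkL/L yellow, tumours purple), with array medians as grey dashes and the floor of 16 as a dotted line. Pbx2 spans 111.7 to 301.9 with overlapping groups, and Meis1 stays at or below 36.3, under every array median.

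Other TALE genes were read from a list of 19, of which 9 were on the array and 6 had a tested probe set. Apart from Pbx3 and Pbx2 the tested genes were Meis3, Pknox1, Tgif1 and Tgif2. None of these or Pbx2 passed in any comparison by limma, and at an unadjusted p under 0.05 only Pknox1 did, between tumours and IkL/L thymocytes. Over the 6 genes, with the chosen Pbx3 among them, the median log2 difference of tumours was 0.08 from WT and -0.02 from IkL/L thymocytes. Without Pbx3 the middle values were 0.03 (Meis3) from WT and -0.14 (Pbx2) from IkL/L thymocytes. Over all tested probe sets the medians were -0.01 and -0.05. Pknox1 encodes PREP1, an alternative partner of PBX that mouse T-cell development requires. It read 196.2, 235.8, 231.1, 218.9, 237 and 140.1 in tumours 1 to 6, 270.5 and 247.3 in WT and 328.9 and 280.1 in IkL/L thymocytes. Every tumour was below every thymocyte sample, but the differences of -0.32 ± 0.24 from WT (adjusted p = 0.567) and -0.56 ± 0.24 from IkL/L thymocytes (adjusted p = 0.245) did not pass. Such a lower range without overlap was met by 8.76% of tested probe sets against WT and 12.1% against IkL/L thymocytes.

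Meis3, a paralog of Meis1, read 59.1, 109.1, 445.1, 145.9, 60.7 and 42.3 in tumours 1 to 6, 152.2 and 64.2 in WT and 74.2 and 69.5 in IkL/L thymocytes. Tumour 3 stood above all other arrays for Meis3 and was the lowest tumour for Pbx3 on 93615_at. On 93616_g_at and 96580_at tumour 2 was the lowest for Pbx3, and a relation of Meis3 to Pbx3 was not tested. Tgif1 and Tgif2 encode TALE repressors that act on TGF-beta signalling. Tgif1 read 430 ± 136 in tumours, 367 ± 38.7 in WT and 385 ± 15.6 in IkL/L thymocytes, and Tgif2 read 395 ± 68.03, 359 ± 17.6 and 513 ± 39.7. Both overlapped between tumours and WT thymocytes, and for Tgif2 every tumour was below both IkL/L arrays without passing the test (-0.39 ± 0.22, adjusted p = 0.359). Meis2 was under the floor on 5 of 6 tumours, with 57 in tumour 6, and Irx3 was at 33.6 to 67 on all arrays, and neither was tested.

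HOX and related homeodomain proteins are the DNA-binding partners of PBX. Of 36 such genes on the array 25 exceeded the array median on no array with any probe set, and 7 were tested. Hoxa9, the partner best known from leukaemia, was untested, with means of 26.7 in tumours, 35.4 in WT and 48.7 in IkL/L thymocytes. Both IkL/L arrays were above both WT arrays, as was the case for 21.2% of tested probe sets. None of the 7 passed in any comparison by limma, and at an unadjusted p under 0.05 only Hoxa4 did, between tumours and IkL/L thymocytes. Against WT the tumour difference closest to the threshold was that of Hoxd8 (0.85 ± 0.42, adjusted p = 0.363), followed by Hoxa4 (-0.35 ± 0.39), Hoxa6 (-0.35 ± 0.56) and Hoxb3 (0.10 ± 0.61). Against IkL/L thymocytes Hoxa4 had -0.93 ± 0.39 (adjusted p = 0.237), Hoxb8 -0.61 ± 0.36, Hoxb6 -0.92 ± 0.58 and Hoxa6 -0.80 ± 0.56. The medians of the 7 tumour differences were -0.03 and -0.66, and the median between IkL/L and WT thymocytes was 0.58 with all 7 positive. Over all tested probe sets these medians were -0.01, -0.05 and 0.03. These comparisons share arrays. The array medians were 102.7 and 105.3 in IkL/L and 90.6 and 97.5 in WT thymocytes. The part of array level in the HOX differences was not tested. The probe sets of Hoxa4, Hoxa6 and Hoxb8 carry the suffix r, which marks relaxed rules of probe selection. The summed intensity of the 36 genes was 1775.7 to 3306 in tumours, 1969.4 to 2820.2 in WT and 3187.6 to 3232 in IkL/L thymocytes. The tumours overlapped both thymocyte groups, which did not overlap each other. Tumours 6 (3306), 1 (2562) and 5 (2106) had the highest sums among the tumours, in the same order as for Pbx3 on 93615_at. Their array medians (113, 97.9 and 92.9) were also the highest among the tumours, in that order. The parallel with Pbx3 was not tested.

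**Figure D4:**
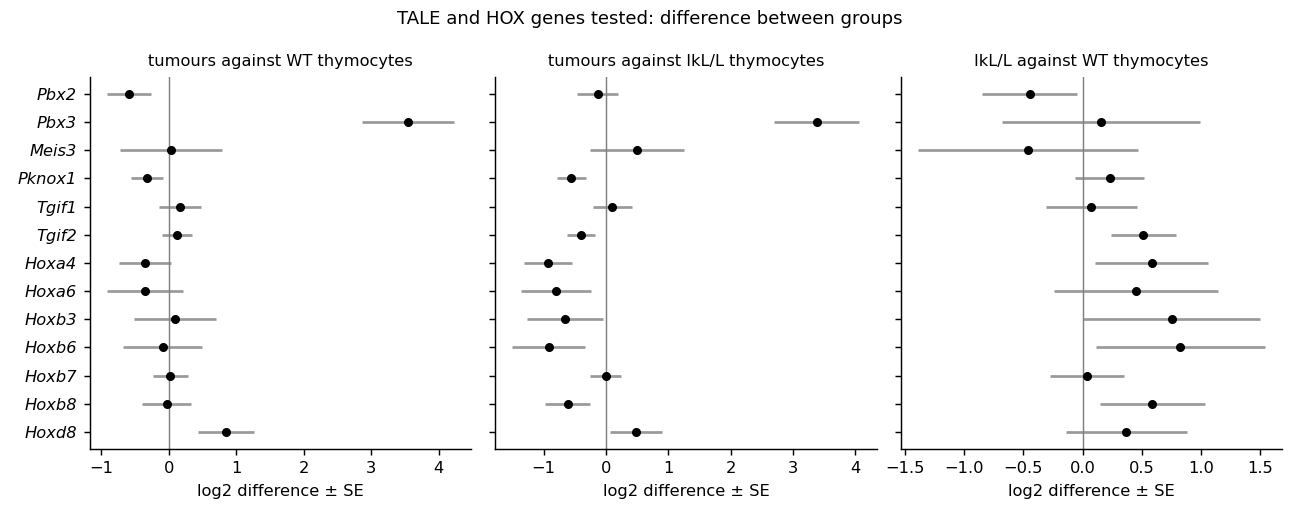
Log2 difference ± SE (x axis) of the 13 tested TALE and HOX genes (y axis) in the 3 comparisons, with 1 probe set per gene. Pbx3 lies at 3.54 and 3.38 in the tumour comparisons, and the other genes lie between -0.93 and 0.85 there.

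Of 15 listed regulators that keep HOX and MEIS genes on or off, 12 were on the array and tested. None passed in any comparison by limma, with 2, 3 and 0 genes at an unadjusted p under 0.05 against WT, against IkL/L thymocytes and between genotypes. The median tumour difference was -0.06 from WT and -0.08 from IkL/L thymocytes. Bmi1, a Polycomb repressor, read 820 ± 72.2 in tumours, 495 ± 22.5 in WT and 535 ± 54.6 in IkL/L thymocytes, with differences of 0.73 ± 0.18 (adjusted p = 0.084) and 0.62 ± 0.18 (adjusted p = 0.119). Every tumour was above every thymocyte array for Bmi1, as was the case for 9.16% of tested probe sets against WT and 10.4% against IkL/L thymocytes. Men1, which encodes menin, a partner of MLL at HOX and MEIS1 genes, had -0.63 ± 0.23 from WT (adjusted p = 0.21). Mllt3, an MLL fusion partner, had -0.61 ± 0.30 from WT (adjusted p = 0.375) and -0.91 ± 0.30 from IkL/L thymocytes (adjusted p = 0.153).

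Genes reported elsewhere as downstream of MEIS1, PBX or HOXA9 moved in both directions. Of 11 tested, 2 rose (Myc and Id2) and 1 fell (Ccnd3) against WT, and 1 rose (Myc) against IkL/L thymocytes. Their median differences were -0.06 and -0.08. Over all tested probe sets 1% were called higher and 0.878% lower against WT, and 0.906% and 0.516% against IkL/L thymocytes. Myc, a growth regulator, read 653 ± 111 in tumours, 232 ± 41.8 in WT and 204 ± 41.9 in IkL/L thymocytes, with differences of 1.48 ± 0.25 (adjusted p = 0.0168) and 1.68 ± 0.25 (adjusted p = 0.012). Id2, an inhibitor of E proteins, rose by 1.34 ± 0.28 against WT (adjusted p = 0.0442) and had 0.50 ± 0.28 against IkL/L thymocytes (adjusted p = 0.353). Ccnd3, the D cyclin of proliferating thymocytes, fell by 1.95 against WT (SE 0.35, adjusted p = 0.024) and had -1.64 ± 0.35 against IkL/L thymocytes (adjusted p = 0.0519), with every tumour below every thymocyte array. Such a lower range was met by 8.76% of tested probe sets against WT and 12.1% against IkL/L thymocytes. The Myc calls were lost when either array of the thymocyte group compared was left out, with adjusted p up to 0.209 and 0.145, and the Ccnd3 call when either WT array or tumour 5 was left out (up to 0.264). The Id2 call was kept in 1 of 10 such fits, the one without tumour 6, and its adjusted p reached 0.389. The Myc calls were kept in 13, the Ccnd3 call in 11 and the Id2 call in 5 of 21 alternatives. Myc and Ccnd3 were also lost with lot, day, module or run as a block and within day 1 or lot 1. Within day 1 Myc had 1.36 from WT and 1.55 from IkL/L thymocytes, and within lot 1 it had 1.003 and 1.19. Ccnd3 had -2.24 and -1.80 from WT within day 1 and lot 1, and Id2 had 1.57 and 1.98. None of these calls changed sign in any alternative. Ccnd1, a D cyclin, read 346 ± 158 in tumours, 75.5 ± 7.99 in WT and 88.8 ± 21.4 in IkL/L thymocytes, and its differences of 2.04 ± 0.50 (adjusted p = 0.076) and 1.82 ± 0.50 (adjusted p = 0.0972) did not pass. Its lowest tumours, 1 (154.9) and 6 (151.9), were the highest for Pbx3. Bcl2, a survival gene, had -1.44 ± 0.34 (adjusted p = 0.0681) and -1.07 ± 0.34 (adjusted p = 0.137). Flt3, a receptor known as a MEIS1 target in leukaemia, read 151.4 to 513.8 in tumours and 338.8 to 513.1 in thymocytes. The Flt3 probe set carries the suffix r of relaxed probe selection.

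Likeness to a member was measured as the root-mean-square difference between log2 profiles over the 10 arrays after each was centred on its own mean, a value that is 0 for identical patterns. For Pbx3 the 10 arrays include the step from thymocytes to tumours by which it was chosen. Genes with a like step lie near Pbx3 by construction, and nothing further is read from its neighbours over these arrays. For 93615_at the nearest genes were Cxcl13, a chemokine that attracts B cells (0.74), Lilr4b, an inhibitory receptor of myeloid cells (0.74), and Bag3, a co-chaperone (0.76). The median over all tested probe sets with 1 symbol, other than those of Pbx3, was 1.93. Cxcl13 averaged 370 in tumours, 6.1 in WT and 6.85 in IkL/L thymocytes, and Lilr4b 135, 20.2 and 22.1. The Pbx3 probe sets 93616_g_at and 96580_at lay at 0.88 and 1.11 from 93615_at. For 93616_g_at the nearest were Lilr4b (0.43), C030006K11Rik (0.43) and Rhoq (0.52), and for 96580_at Cenpv (0.41), Nthl1 (0.43) and Lgmn, a lysosomal protease (0.47). Among the 20 genes so named 4 were near 2 of the Pbx3 probe sets (Cenpv, Lgmn, Lilr4b and Pltp) and 0 near all 3. Over the 6 tumours alone the 5 nearest genes of each probe set, led by Il9 (0.31), Atg4b (0.15) and Agpat1 (0.067), had no gene in common. For Pbx2 the nearest were Tapbp (0.21), Zfp276 (0.22) and Men1 (0.22), beside a median of 0.58.

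Markers of some other cell types moved between the same groups as Pbx3, and others did not. Of the B-cell markers 6 were tested and of the megakaryocyte and erythroid markers 3, and none passed in any comparison by limma. The sums of both lists overlapped between tumours and thymocytes. Their median tumour differences from WT and IkL/L thymocytes were -0.64 and -0.86 for B-cell markers. For megakaryocyte and erythroid markers they were 0.11 and 0.27. Of 14 macrophage markers on the array 11 were tested and 4 rose against WT (Apoe and the complement genes C1qa, C1qb and C1qc) and these and Cd68 against IkL/L thymocytes. Their summed intensity was 10540.2 to 21409.9 in tumours against 3775 to 4765 in thymocytes, with Itgam under the floor on 7 arrays. Fcgr3, an untested macrophage marker, lay the other way, at 11 to 34.6 in tumours and 41.9 to 69.4 in thymocytes. Of 15 stromal and endothelial markers 10 were tested, Fn1, Mgp and Pdgfrb rose against WT and Pdgfrb against IkL/L thymocytes, and the sums were 2116 to 3472 in tumours and 1178.5 to 2388.5 in thymocytes. Of the 10 stromal and endothelial differences 7 were positive against WT, the negative ones being Col1a2, Pdgfra and Pecam1, and Col1a2 was below both IkL/L arrays in every tumour (-0.81 ± 0.32, adjusted p = 0.217). The Col1a2 probe set carries the suffix r of relaxed probe selection. Of 9 thymic epithelial markers 5 were tested, Krt8, Krt18, Ccl25 and Ctsl fell against WT and Krt18 and Ccl25 against IkL/L thymocytes, and the sums were 428.3 to 1026.1 in tumours and 1535.1 to 5457.5 in thymocytes. Of 4 adipose markers only Lpl was tested, which rose against IkL/L thymocytes (2.60 ± 0.52, adjusted p = 0.0409) and had 2.19 ± 0.52 against WT (adjusted p = 0.0724), and the sums were 173.4 to 418.7 in tumours and 74.9 to 133.1 in thymocytes. Each of these marker calls was lost in at least 1 of the fits that left out an array of the thymocyte group compared, and each with chip lot as a block and within lot 1, and none changed sign. Over all tested probe sets 1% were called higher and 0.878% lower against WT, and 0.906% and 0.516% against IkL/L thymocytes. The number of alternatives that kept a call ran from 3 for Mgp to 15 for Apoe, Krt18 and Ccl25 against WT, of the 20 or 21 in which each gene was tested. Among the tumours the macrophage sum fell in the order of tumours 1, 2, 3, 6, 5 and 4. The stromal sum was highest in tumours 1 and 6, as Pbx3 was, and then fell from tumour 2 over 3 and 4 to 5. The adipose sum was highest in tumour 6 and lowest in tumour 3, as Pbx3 on 93615_at was, with tumour 2 the second highest. On 93616_g_at and 96580_at tumour 2 was the lowest for Pbx3. The part of these cell types in the Pbx3 difference was not tested.

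Early progenitor markers, which include genes of the cells in which Meis1 is known to be active, did not pass in any comparison by limma (6 of 11 tested, 2 at an unadjusted p under 0.05 against WT and 0 otherwise). Their summed intensity was 2705, 1257, 1275, 1212, 2330.5 and 2047.5 in tumours 1 to 6, 1110.4 and 1291 in WT and 1462.5 and 1582 in IkL/L thymocytes. Tumours 1, 5 and 6 were the highest for this sum and, in another order, for Pbx3. Different genes carried the sum: Il7r, the interleukin-7 receptor, was at 1461.9 in tumour 1 and 745.3 in tumour 5, and Lyl1, a basic helix-loop-helix factor, at 656.5 in tumour 5 and 354.7 in tumour 6. This parallel was seen in the data and not tested.

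**Figure D5:**
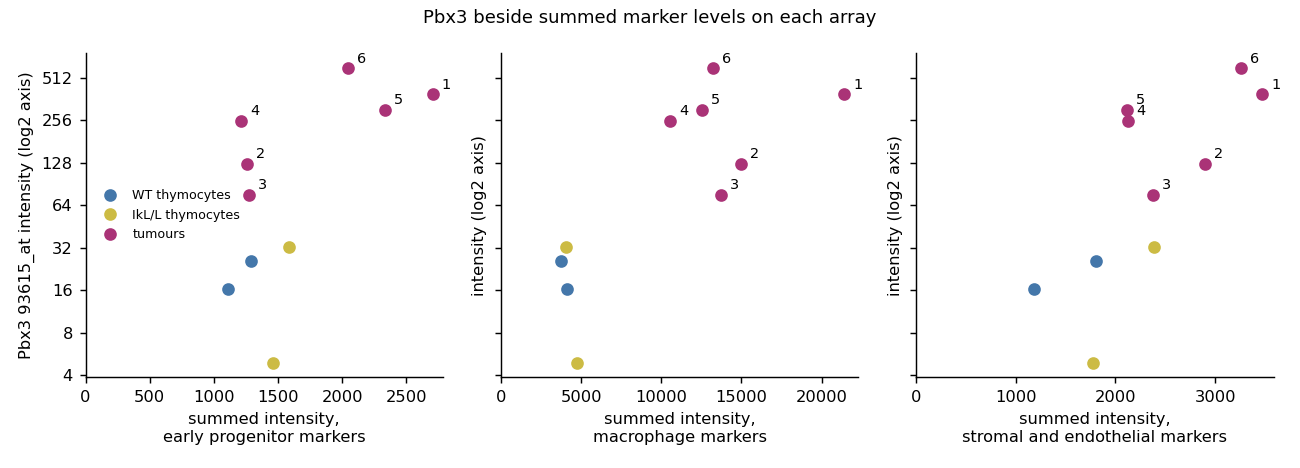
Pbx3 intensity on 93615_at (y axis, log2) against the summed intensity (x axis) of early progenitor, macrophage, and stromal and endothelial markers on each array, with tumours numbered 1 to 6 in purple, WT in blue and IkL/L in yellow. Tumours 1, 5 and 6 lie right of the other arrays in the first panel, and all tumours lie right of the thymocytes in the second.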

How the data were processed

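The deposited table held intensities of 12488 probe sets on 10 MG_U74Av2 arrays. The summarising software is not given in the sources used here. From the values, the deposited intensities were scaled by the authors to a common trimmed mean of about 300.2 and were not scaled again. Other scanner columns deposited per array, per the file headers, gave chip lot, hybridization day and fluidics module. Runs are chains of arrays with at most 10 minutes between consecutive recorded hybridization times. No pair of arrays was identical. Symbols came from the platform annotation (10855 probe sets with 1 symbol, 396 with several, 1237 with none). No symbol changed on update.

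Values under 16, the 20th percentile, were raised to it and log2 was taken. The 66 controls were removed, and probe sets above the array median on at least 2 arrays were tested (7172). limma 3.58.1 in R 4.3.3 was fitted with 1 mean per group over the 10 arrays (7 residual and 3.17 prior degrees of freedom), with Benjamini-Hochberg adjustment over the 7172 and adjusted p under 0.05 as the criterion. The procedure was tested on simulated arrays. For a listed gene the tested probe set with the highest mean was used.

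All member probe sets are described. Of the other lists, genes that passed, or up to 4 with the smallest p, were named, and for likeness the nearest 5 (8 for Pbx3) were eligible. Members and lists were chosen with earlier results of these data known. Alternatives were a pseudocount of 16, a filter at 5 arrays or none, quantile normalization, blocks for lot, day and module, fitting only the groups compared, and each array left out. Run as a block, day 1 only and lot 1 only were chosen after seeing the data.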

Additional observations from a re-analysis of the deposited data

Results flagged for a closer look

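A sample far from the others of its group was looked for in the 6 tumours on each of the 9 TALE probe sets on which no tumour lay under the floor of 16, by the gap of the highest or lowest intensity to its neighbour as a share of the group's range. Chance alone exceeds Dixon's critical value in about 1 in 20 groups. It was exceeded on 1 probe set, that of Meis3, on which tumour 3 read 445.1 and the next tumour 145.9, a share of 0.743.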

How the results depend on the processing

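No paired analysis was possible because no number in the labels is shared between the groups. Against WT thymocytes 135 probe sets passed, and 77 passed with no filter, 33 with a block for lot, 52 for day, 49 for module and 9 for run, 26 within day 1 and 22 within lot 1. Leaving out 1 array gave 14 (without the first WT array) to 221 (without tumour 6), with 29 without the second WT array and 75 without tumour 5. Against IkL/L thymocytes 102 passed, and 163 passed with quantile normalization, 17, 42, 21 and 0 with the same blocks (limma, with 433 at an unadjusted p under 0.05 in the last), 20 within day 1 and 8 within lot 1, and 7 (without the first IkL/L array) to 332 (without tumour 6) with 1 array left out, and 23 without the second IkL/L array. Between genotypes 1 passed, and 0 passed with the stricter filter, with module or run as a block and with only these groups (limma, with 189 to 419 at an unadjusted p under 0.05), 2 with lot as a block, 15 with no filter and 1 to 2 with 1 array left out. The causes were not tested. The Pbx3 differences of tumours were positive in all alternatives in which the probe sets were tested, which any fit on a subset of arrays had to give. Probe sets 93616_g_at and 96580_at were not tested with the stricter filter. Pbx2 passed in none of 21, 21 and 19 alternatives; its difference from IkL/L thymocytes ranged from -0.34 to 0.070 with 1 array left out, turning without the first IkL/L array, and it turned to 0.092 between genotypes with module as a block. Between genotypes Pbx3 93615_at turned to -0.21 with the pseudocount, -0.65 with module, -0.17 with run and lay at -0.35 to 0.66 with 1 array left out, and 93616_g_at to 0.078 with the pseudocount, 0.53 with run and -0.79 to 0.53 with 1 array left out. Meis1 lies near background, so its differences carry no direction.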
